A study of Arabidopsis thaliana with 12 samples.

Results

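PSB27, LPA19 and RBD1, genes for proteins that act in the assembly of photosystem II, were measured together with AT5G46390, a gene of the carboxyl-terminal processing peptidase family (family S41) to which the D1 processing peptidase belongs. The 4 genes were taken by their loci (AT1G03600, AT1G05385, AT1G54500 and AT5G46390) from the features that the array's gene table pairs with exactly 1 gene. They are 4 of 689 genes with such a feature and were chosen by their measured log2 changes between these same groups, with 1 feature each (features 2306, 4071, 4108 and 1690). The name RBD1 follows common use for its locus. All 12 samples were total RNA of wild-type Arabidopsis thaliana, ecotype C24. In 6 samples the plants had grown in light chosen to drive photosystem I (PSI light), without DCMU. In the other 6 they had grown in light chosen to drive photosystem II and were treated with the inhibitor DCMU (PSII light with DCMU). Neither light was tried both with and without DCMU, so light and DCMU cannot be told apart. The labels give no tissue, plant age, dose or length of treatment. Nor do they tie samples to separate plants or cultures, so errors and p-values cover only how these samples vary, and that variation may be technical.

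Photosystem II is the thylakoid complex that splits water and passes electrons to plastoquinone. DCMU blocks that transfer, while PSI light draws electrons out of the plastoquinone pool. The D1 protein of its reaction centre is damaged by light and replaced continually. New D1 is made with a carboxyl-terminal extension, which a peptidase of the thylakoid lumen cuts off before the manganese cluster that splits water can form. In Arabidopsis that peptidase is encoded by AT4G17740. Psb27 is a small lumenal protein that, in cyanobacteria, binds photosystem II complexes that are not yet complete, and in Arabidopsis PSB27 is needed for efficient repair in strong light. LPA19, a Psb27 homologue, is needed for efficient processing of D1 in Arabidopsis. RBD1 is a thylakoid rubredoxin, an iron protein without which photosystem II does not accumulate in Arabidopsis, green algae and cyanobacteria.

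Samples numbered 1 and 2, 3 and 4, and 5 and 6 within a group gave nearly the same values, with a Spearman correlation over all features of 0.98 to 0.99 against 0.92 to 0.97 for other samples of a group. Each such pair was averaged to replicate 1, 2 or 3, so n = 3 per group, and precision is limited by this number of arrays. Sample medians were 0.542 to 0.584 under PSI light, while those of PSII light with DCMU were 0.632 to 0.687. Because the values had been seen when the 4 genes were picked, their differences between the groups are a description, with no test. Of the 3439 features, 48.5% passed an adjusted p of 0.05 (limma, Benjamini-Hochberg), made up of 26.4% that were higher under PSII light with DCMU and 22.0% that were lower. Higher calls made up 54.5% of all calls, but 41.5% when arrays were quantile normalized and 40.9% when they were centred on their medians.

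In the deposited values the assembly genes were lower and the peptidase gene higher under PSII light with DCMU, with limits given below. With the place of features taken out, the log2 changes of PSB27, LPA19 and RBD1 were -0.77, -0.40 and -0.08. The last was smaller than its standard error. AT5G46390 lay near the floor set for low intensities under PSI light. A feature that it shares with related genes went the other way. PSB27 had 2.27 times, LPA19 1.84 times and RBD1 1.50 times the intensity under PSI light that each had under PSII light with DCMU. AT5G46390 had 14.3 times the intensity under PSII light with DCMU that it had under PSI light. In none of the 4 genes did the averaged replicates of one group reach into the range of the other. Across the array 60.7% of features had groups that did not overlap, 33.8% with the DCMU group higher and 27.0% with it lower, and nothing is read from the count because these values chose the genes. In these extracts of total RNA, fewer cells of a type and less RNA per cell cannot be told apart.

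**Figure D1:**
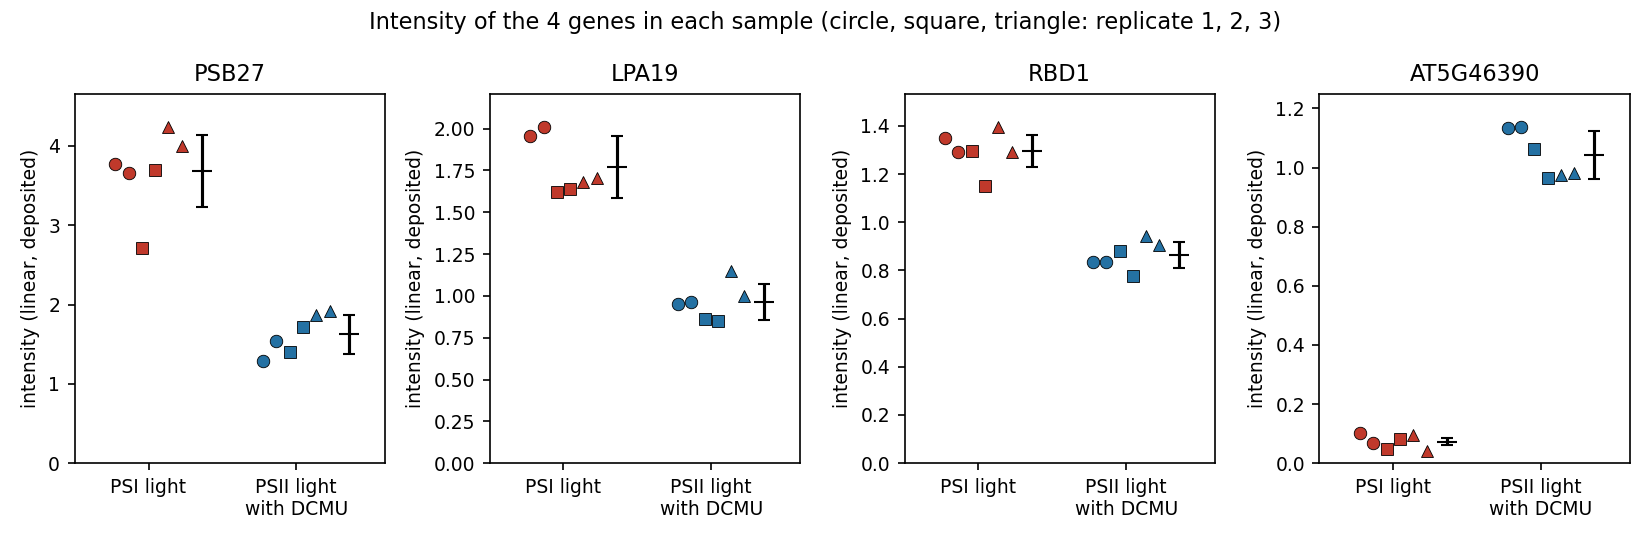
Intensity (linear scale, as deposited) of PSB27, LPA19, RBD1 and AT5G46390 in each of the 12 samples, by group. Circles, squares and triangles mark replicates 1, 2 and 3, and the black bars give mean ± SD over the 3 averaged replicates. For the first 3 genes all PSI light samples lie above all samples of PSII light with DCMU, and for AT5G46390 all lie below.

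PSB27 ran from 2.72 to 4.24 over the 6 samples under PSI light, with a median of 3.74. Under PSII light with DCMU it ran from 1.29 to 1.92, with a median of 1.63. The lowest PSI light sample was thus 1.42 times the highest sample of the other group, and the groups did not overlap. The group means were 3.68 ± 0.455 and 1.62 ± 0.247 (SD, n = 3), which is a log2 change of -1.18 ± 0.154 (SE). The lowest sample under PSI light, number 3, had an intensity of 2.72 while its partner, number 4, had 3.70, and this gap of 0.45 on the log2 scale was the widest within any pair for PSB27. Within each replicate number the log2 change was -1.40, -1.03 and -1.12.

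LPA19 ran from 1.62 to 2.01 under PSI light (median 1.70) and from 0.851 to 1.15 under PSII light with DCMU (median 0.959). The lowest PSI light sample was 1.41 times the highest of the other group. The means of 1.77 ± 0.187 and 0.964 ± 0.110 (SD, n = 3) give a log2 change of -0.88 ± 0.119 (SE). Replicate 1 was the highest under PSI light (1.98, against 1.63 and 1.70 for replicates 2 and 3), while replicate 3 was the highest under PSII light with DCMU (1.08, against 0.959 and 0.857 for replicates 1 and 2). The log2 change accordingly differed between the numbers, at -1.05, -0.93 and -0.66. Partners of a pair stayed within 0.20 of each other on the log2 scale.

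RBD1 had the smallest spread between replicates of the 3 assembly genes. It ran from 1.15 to 1.395 under PSI light (median 1.29) and from 0.778 to 0.945 under PSII light with DCMU (median 0.859). The coefficient of variation over the replicates was 5.01% and 6.25%, against 12.4% and 15.2% for PSB27 and 10.6% and 11.4% for LPA19. The means were 1.30 ± 0.0649 and 0.863 ± 0.0540 (SD, n = 3), a log2 change of -0.59 ± 0.0686 (SE). The change was -0.66, -0.56 and -0.54 within the 3 replicate numbers. With place taken out, as described below, it was -0.08 ± 0.0901, smaller than its standard error.

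AT5G46390 was dim under PSI light, with intensities of 0.0425 to 0.103 and a median of 0.0746. Under PSII light with DCMU it ran from 0.966 to 1.14, with a median of 1.02. The lowest sample of that group was 9.37 times the highest PSI light sample. The means were 0.0727 ± 0.0114 and 1.04 ± 0.0814 (SD, n = 3), a log2 change of 3.91 ± 0.142 (SE), and 3.76, 4.03 and 3.94 within the replicate numbers. None of the other 3438 features had a higher log2 change, but nothing is read from this rank because the change chose the gene. The size of the change rests on values near the floor of 0.0431 (the 1st percentile of positive intensities). All intensities under the floor were set to it before log2, and 1 sample, PSI light number 6, lay just under it. Partners of a pair differed by up to 1.13 on the log2 scale under PSI light. With the floor at the 5th percentile (0.139) all PSI light samples lay under the floor, the change was 2.90, and 7 features had a higher one. The level of the array's background is unknown.

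**Figure D2:**
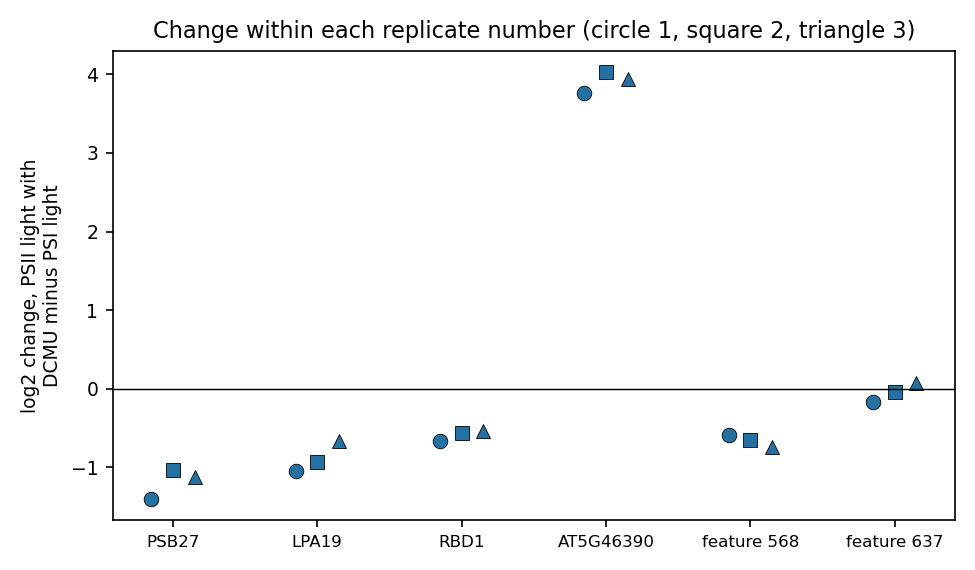
Log2 change (PSII light with DCMU minus PSI light) within each replicate number for the 4 genes and for features 568 and 637, which are paired with several peptidase genes. PSB27, LPA19, RBD1 and feature 568 lie below 0 in all 3 replicate numbers, AT5G46390 lies between 3.76 and 4.03, and feature 637 lies on both sides of 0.

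The peptidase family has 2 further features on the array, neither of which measures a single gene. Feature 568 is paired with AT5G46390, AT4G17740 and AT3G57680 together, and feature 637 with AT4G17740 and AT3G57680. Feature 568 was lower under PSII light with DCMU, opposite to the feature of AT5G46390 alone. It ran from 0.931 to 1.33 under PSI light and from 0.619 to 0.861 under PSII light with DCMU, without overlap. Its means were 1.17 ± 0.152 and 0.741 ± 0.0969 (SD, n = 3), and it fell by 0.66 ± 0.147 on the log2 scale (SE; limma, adjusted p = 0.0193 over all features). That call ended without PSI replicate 1 (adjusted p = 0.0586), PSI replicate 3 (0.0536), PSII_DCMU replicate 2 (0.0510) or PSII_DCMU replicate 3 (0.0573), and with place taken out as described below (-0.09 ± 0.108, adjusted p = 0.548). Over its 15 alternatives the adjusted p ran from 0.000255 to 0.657. Feature 637 had overlapping groups, with means of 0.377 ± 0.0237 and 0.365 ± 0.0280 (SD, n = 3) and a log2 difference of -0.05 ± 0.0806 (SE; limma, adjusted p = 0.684). After quantile normalization it passed, at -0.54 ± 0.102 (adjusted p = 0.0107), and with place taken out it turned to 0.12 ± 0.102 (adjusted p = 0.359), within a range of 0.0107 to 1 over its alternatives. Which transcripts the shared features detect was not tested, so the gene behind either value cannot be told.

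**Figure D3:**
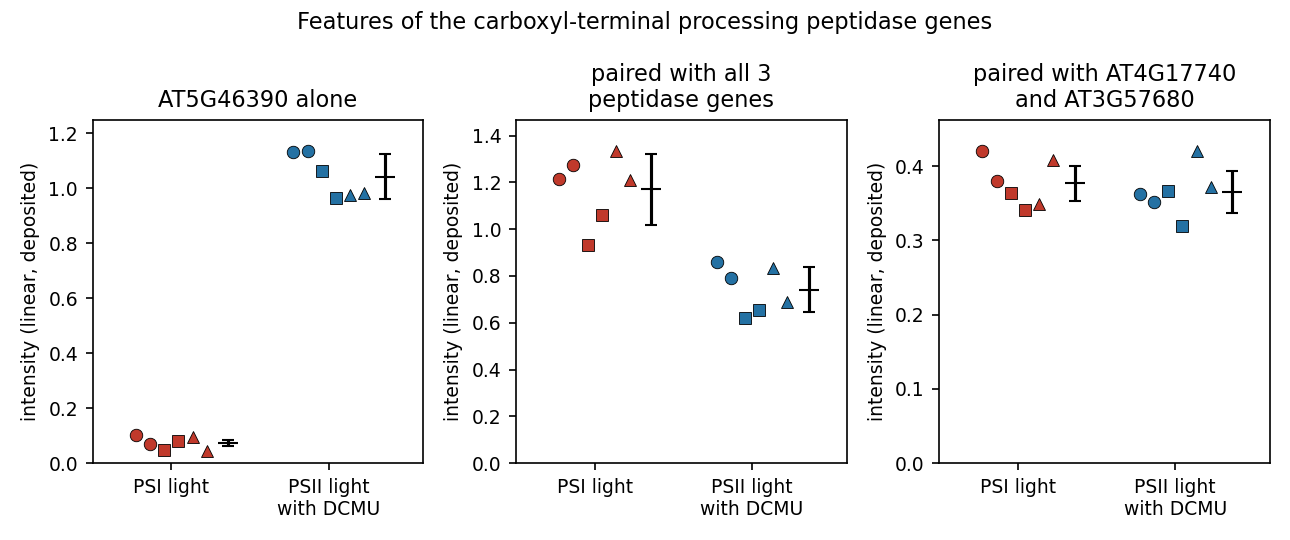
Intensity (linear scale, as deposited) in each of the 12 samples for the feature of AT5G46390 alone, for feature 568 and for feature 637, with symbols and bars as in the plot of the 4 genes. The first is higher, the second lower and the third overlapping between PSI light and PSII light with DCMU. Each panel has its own scale, and levels cannot be compared between features.

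Changes on this array moved with the brightness of a feature and with its place in the order of feature numbers. Places were counted within 16 equal runs of consecutive numbers (4608 numbers in all), each cut into 3 equal stretches. Features of the first stretch had a median log2 change of -0.31, those of the second 0.42 and those of the third 0.16. All 3 assembly genes stand in the first stretch, PSB27 at place 2, LPA19 at place 39 and RBD1 at place 76, and AT5G46390 stands in the third, at place 250. The 14 other features at the place of PSB27 had a median change of -0.39, with a range of -0.82 to 0.88, and PSB27 was lower than all of them. The 15 others at the place of LPA19 had a median of -0.41 and reached -1.31, below LPA19. The 13 others at the place of RBD1 had a median of -0.55, next to its own -0.59. The 12 others at the place of AT5G46390 had a median of 0.21 and reached at most 2.42. Because the genes were chosen by their changes, nothing is read from PSB27 and AT5G46390 standing outside these ranges.

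The features with the nearest listed numbers were read in the same way. The 6 nearest to LPA19 were all lower under PSII light with DCMU, by log2 changes of -0.96 to -0.40 with a median of -0.81, next to the -0.88 of LPA19. Of the 6 nearest to RBD1, 5 were lower (median -0.48), and of the 6 nearest to PSB27, 5 were lower (median -0.22, lowest -0.92). The 6 nearest to AT5G46390 had a median of 0.18 and reached 1.80. Brightness moved with the change too. With all features in 10 classes of brightness, the median change was -0.44 in the brightest class, which holds PSB27, -0.24 in the next, which holds LPA19, and -0.11 in the class after that, which holds RBD1. In the class above the dimmest, which holds AT5G46390, it was 0.64. The classes rank features by the mean of their log2 values, and the low PSI light values of AT5G46390 pull its class down.

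**Figure D4:**
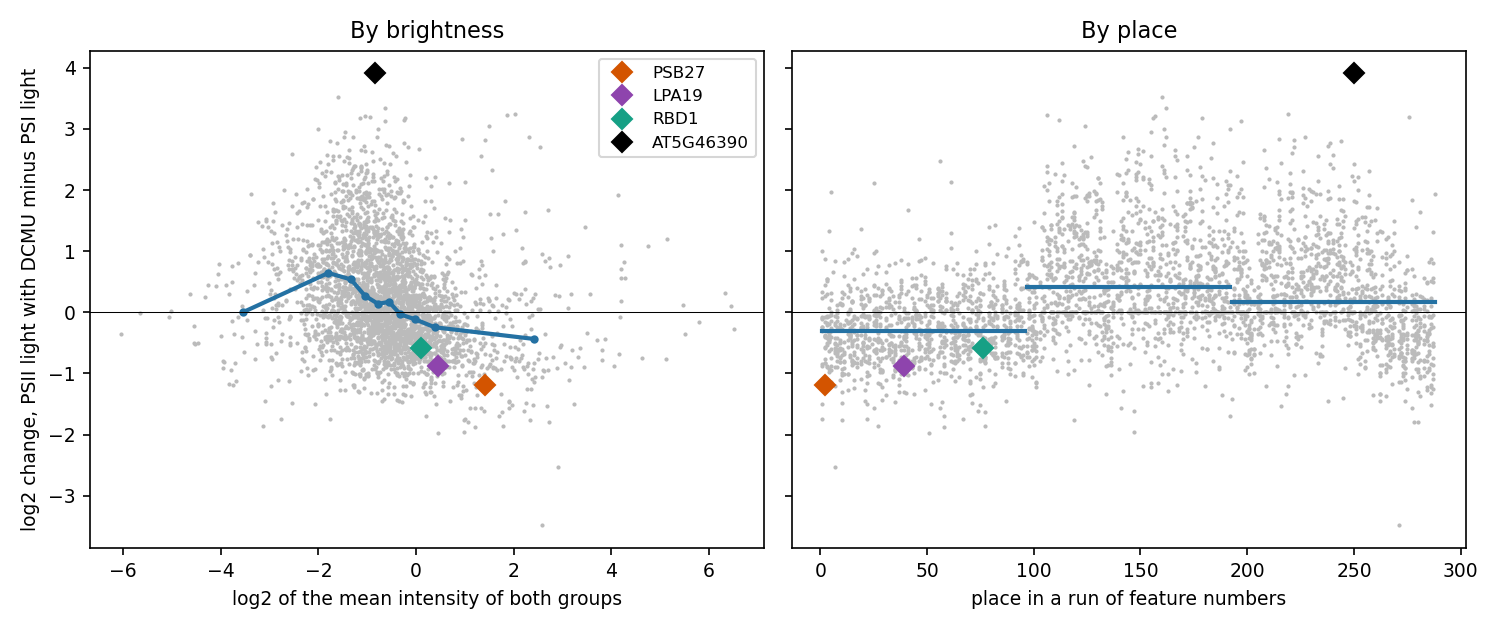
Log2 change of all features (grey points) against the log2 of the mean intensity of both groups (left) and against place in a run of feature numbers (right). Blue lines are medians in 10 classes of brightness and in the 3 stretches of a run. The classes rank the mean of log2 values, so the class of a gene can differ from its position on the left axis. The diamonds of PSB27, LPA19 and RBD1 lie at places 2, 39 and 76, where most features are below 0, and AT5G46390 lies above all other features.

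With the median of each place taken out of every replicate, the changes were -0.77 ± 0.129 for PSB27, -0.40 ± 0.102 for LPA19, -0.08 ± 0.0901 for RBD1 and 3.33 ± 0.187 for AT5G46390 (log2, SE, n = 3). With brightness taken out as well they were -0.60 ± 0.125, -0.31 ± 0.115, -0.03 ± 0.104 and 3.14 ± 0.201. These standard errors leave out the uncertainty of the medians and of the brightness trend that were taken out. PSB27, LPA19 and AT5G46390 kept their direction under each of the 15 alternatives. RBD1 kept its sign, but the values with place taken out lie within their standard errors of 0. What part of each change belongs to place or brightness was not tested beyond these values.

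**Figure D5:**
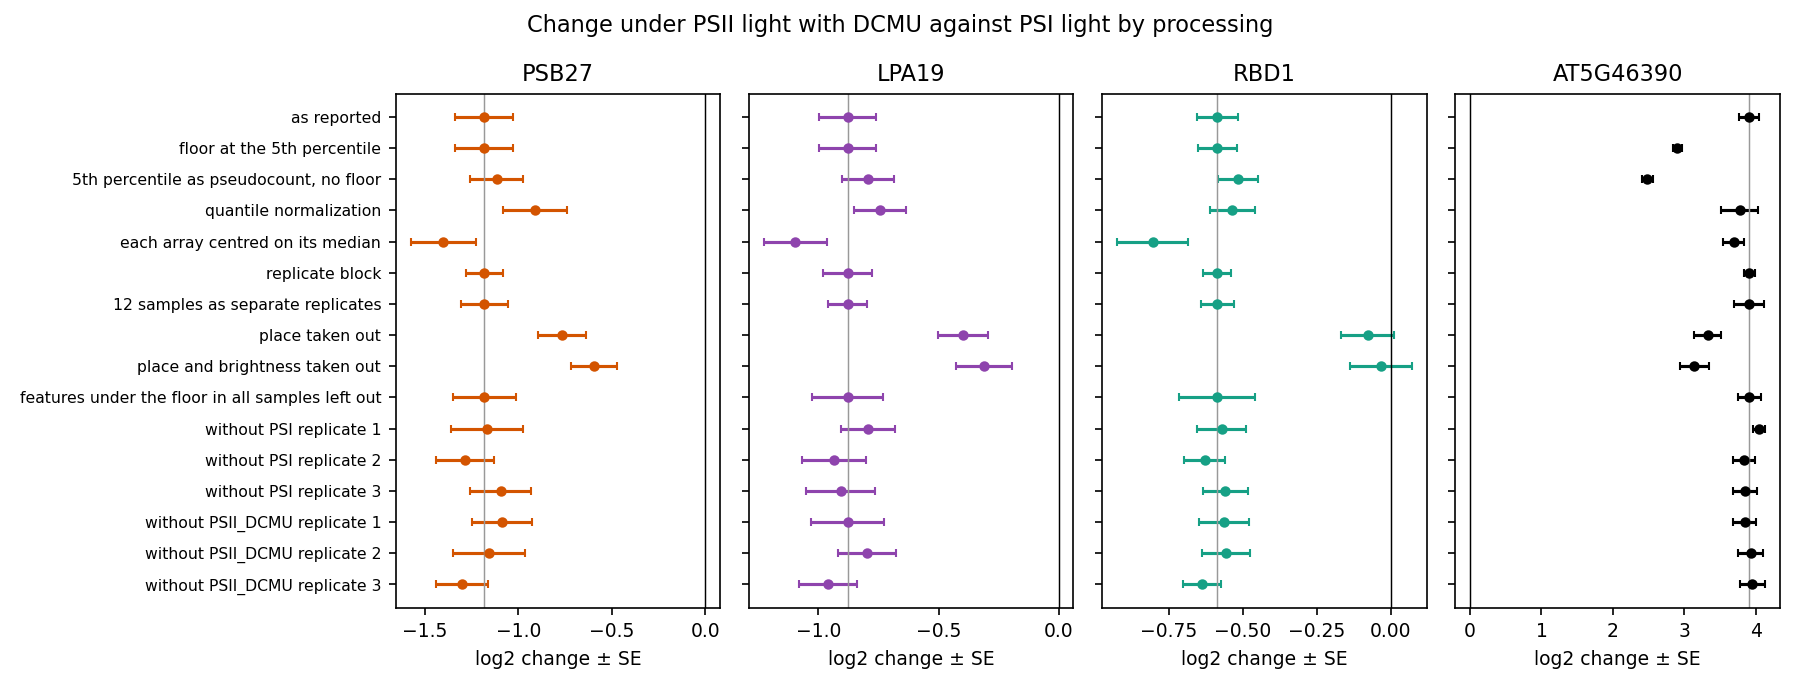
Log2 change ± SE (PSII light with DCMU minus PSI light) of each gene as reported, under 9 other ways of processing and without each replicate in turn. Taking place out brings RBD1 from -0.59 to -0.08, and a higher floor brings AT5G46390 from 3.91 to 2.90. Each panel has its own scale.

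The profiles of the assembly genes over the 6 averaged replicates were compared with those of 691 other features with 1 gene each, by the root mean square difference of log2 values centred on each feature's own mean. The most alike to PSB27 were AT4G32340 (0.12) and AT3G54930 (0.13), where the median over all was 0.70. The most alike to LPA19 were AT4G16610 (0.066) and AT4G37230 (0.090), with a median of 0.55. The most alike to RBD1 were FZL (0.065), which encodes a dynamin-like protein of thylakoid membranes, and AT2G04700 (0.066), the gene of the catalytic subunit of ferredoxin-thioredoxin reductase, with a median of 0.43. The most alike to AT5G46390 were AT3G25680 (0.28) and AT3G56330 (0.30), with a median of 1.92. The difference between the groups, which chose the genes, enters this measure, so the distances of different genes are not compared. No shared function is read from these neighbours. Between the assembly genes the difference was 0.21 for PSB27 and LPA19, 0.17 for LPA19 and RBD1 and 0.32 for PSB27 and RBD1. In likeness to PSB27, LPA19 ranked 21 and RBD1 58, and in likeness to LPA19, RBD1 ranked 30. AT5G46390 ranked 691, the last, in likeness to each assembly gene. The difference that chose the genes enters these ranks too, so nothing is read from them.

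Other genes of the complex were scarce on the array. Of 28 listed assembly and repair factors of photosystem II other than these, 0 had a feature of their own. Of 18 listed proteases, kinases and phosphatases of photosystem II repair, 1 was measured, SPPA, a light-induced thylakoid protease. It rose by 1.30 ± 0.340 on the log2 scale (SE; limma, adjusted p = 0.0310), from 0.182 ± 0.0852 to 0.415 ± 0.0252 (SD, n = 3). Its call ended with the replicate number as a block (adjusted p = 0.0647), after quantile normalization (0.0657) and in the absence of 5 of the 6 replicates, which were PSI replicates 1 (0.0867) and 3 (0.0655) and PSII_DCMU replicates 1 (0.0867), 2 (0.0830) and 3 (0.0932). Its change was 0.66 after quantile normalization, 0.68 with place and brightness taken out and 0.82 with the 5th percentile as a pseudocount. Over all 15 alternatives its adjusted p ran from 0.00069 to 0.0932.

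Of 13 listed nuclear-encoded subunits of photosystem II, 2 were measured and 0 passed, where 48.5% of all features did, and 0 passed at an unadjusted p of 0.05, where 56.6% of all features did (limma). PSBW, a small thylakoid membrane subunit, stood at 0.19 ± 0.118 (log2, SE; limma, adjusted p = 0.235), and turned to -0.033 after quantile normalization and -0.026 with arrays centred on their medians, without passing. PSBY, another small membrane subunit, stood at 0.40 ± 0.231 (adjusted p = 0.213), and passed with the replicate number as a block (adjusted p = 0.0180), with place taken out (0.66, adjusted p = 0.0214) and with place and brightness taken out (0.70, adjusted p = 0.0124), within a range of 0.0124 to 0.464. The median of the pair of subunits was 0.30, against 0.04 for all features. Of 14 listed antenna genes of photosystem II 1 was measured, LHCB1.5 (LHB1B2 in the reference table), at -0.34 ± 0.117 (limma, adjusted p = 0.0651, unadjusted p = 0.0335). It passed with the block (adjusted p = 0.0334) and with arrays centred on their medians (-0.56, adjusted p = 0.00805), within a range of 0.00805 to 0.291. Of 10 listed markers of roots, guard cells and flowers 0 had a feature of their own, so the tissue could not be checked.

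Some listed genes share a feature with relatives, and these values belong to no single gene. The feature paired with LPA1, an assembly factor for D1, and AT4G28740 rose under PSII light with DCMU, by 0.77 ± 0.0971 (log2, SE; limma, adjusted p = 0.00368). The one paired with PAM68, which acts early in photosystem II assembly, and AT5G52780 was higher by 0.75 ± 0.0692 (adjusted p = 0.00163). Both stand in the third stretch, at places 249 and 236. The second lost its call with place taken out (0.33, adjusted p = 0.0948, within a range of 0.000542 to 0.260), the first only with brightness taken out as well (0.32, adjusted p = 0.0856, within a range of 1.92e-05 to 0.0856). After quantile normalization the first stood at 0.37 and the second at 0.43. The feature of FKBP20-2 and 3 related genes had overlapping groups (0.38 ± 0.267, adjusted p = 0.289), and passed without PSI replicate 2 (0.65, adjusted p = 0.0269, within a range of 0.0269 to 0.598). The feature paired with the 3 LHCB4 antenna genes was lower (-0.63 ± 0.0963, adjusted p = 0.00637), and its call ended with place taken out (-0.28, adjusted p = 0.0722, within a range of 8.44e-06 to 0.409). After quantile normalization it stood at -0.33. This lower feature also stands in the third stretch, at place 278, as does feature 568 at place 280. The 14 other features at place 280 had a median change of -0.49, so places within that stretch differed in direction.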

How the data were processed

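The deposited table holds 1 intensity on a linear scale (0 to 100) for each of 3439 features in 12 samples. What array, scanner, background correction or scaling the authors used is not stated by the labels or the table. Column means lay between 1.09 and 1.13, and the deposited intensities were kept without further scaling. Like means do not show that the arrays share a scale, since sample medians differed between the groups. Bright features weigh most in a mean, with 5.38 as the mean of the brightest of the 10 classes and 1.30 of the next. The maximum of 100 was reached by 13 values. An exact 0, found 108 to 144 times per sample, may be a failed measurement. The gene table paired 692 features with 1 gene and 870 with several, leaving 1877 unnamed, and 690 of the 692 matched the reference table of the assembly TAIR10.1. Genes were named by that table or by common use.

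Values under the 1st percentile of positive intensities (0.0431; 4.74% of values) were set to it before log2. Sample numbers 1-2, 3-4 and 5-6 were averaged (deviations from the group means correlated at 0.38 to 0.66 within a pair and at -0.51 to -0.18 otherwise). Same-numbered averaged replicates also went together between the groups (0.29 to 0.36 for same numbers, -0.33 to 0.0029 for others). This rests on these correlations, with numbers taken from the titles. Deviations from a group mean sum to 0, so the low values for other samples and other numbers are partly built in. Groups were compared with limma 3.58.1 in R 4.3.3 (lmFit, eBayes, no block, two-sided, Benjamini-Hochberg over all features at 0.05). The code was also run on simulated data with independent normal noise for each feature. Those data held no trend with place or brightness and no effect shared by replicate numbers, so they cannot check the calls against these. Figures used Python 3.11.15 and matplotlib 3.10.9. An exact permutation test of 3 against 3 cannot give a p below 0.1. Means ± SD use linear intensities without the floor, and standard errors come from the fit. Named are the 4 genes, every measured gene of the lists and the 2 features most alike to each of the 4. The 4 genes and the lists were chosen with earlier results of these data known. Shared features were added after the gene table was read. Alternatives concerned the floor, scaling, block, pairs, place, brightness, dim features and each replicate.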

Additional observations from a re-analysis of the deposited data

How the results depend on the processing

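Under 15 alternatives PSB27 and LPA19 stayed lower and AT5G46390 higher under PSII light with DCMU, while the change of RBD1 lay within its standard error of 0 with place taken out. Centring each array on its median, which took the median over all features from 0.04 to -0.18, gave -1.40 for PSB27, -1.10 for LPA19, -0.80 for RBD1 and 3.69 for AT5G46390. Quantile normalization gave -0.91 for PSB27. Place taken out gave -0.77, -0.40, -0.078 ± 0.0901 and 3.33 in the same order, and place and brightness taken out -0.60, -0.31, -0.033 ± 0.104 and 3.14. The floor at the 5th percentile gave 2.90 for AT5G46390 and that percentile as a pseudocount 2.49. Leaving out 1 replicate gave -1.30 to -1.09 for PSB27, -0.96 to -0.79 for LPA19, -0.64 to -0.56 for RBD1 and 3.83 to 4.05 for AT5G46390. AT5G46390 had the highest change of all features except under the 2 treatments of low values, where 7 were higher. The rank is a description only, because the change chose the gene.

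Features called numbered 1138 to 2294 over the alternatives, the latter with the 12 samples as separate replicates, and 1138 to 1685 without 1 replicate. The replicate block left the changes of the 4 genes as they were, called 1656 features, and changed the calls of SPPA, PSBY and LHCB1.5 among the listed genes and none among the 6 shared features. The share of calls that were higher was 54.5% as reported, 41.5% after quantile normalization and 40.9% after centring. The count of repair proteases, kinases and phosphatases called was 0 after quantile normalization and with the block, and 0 to 1 without 1 replicate. The count of photosystem II subunits called was 1 (PSBY) with the block, with place taken out and with place and brightness taken out. The count of antenna genes called was 1 (LHCB1.5) with centring, with the block and with 12 separate samples. PSBW turned to -0.033 after quantile normalization and -0.026 after centring, and feature 637 to 0.12 with place taken out, none past the threshold. Feature 637 passed after quantile normalization (-0.54 ± 0.102, adjusted p = 0.0107, limma). The causes were not tested, except that dim values rest on the floor by construction. The listed assembly factors gave no value under any alternative, since 0 were measured. The scale and background of the intensities are unknown.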
